A study of Mus musculus with 6 samples.

Results

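The genes described here are 6 long noncoding RNAs known from neurons, Malat1, Meg3, Neat1, Miat, Rian, and Snhg11. They were chosen by name, and their members are all cytosines called as candidate m5C whose gene label holds one of the names. They made up 6927 of the 5240657 cytosines listed in at least 1 library, and 5 of the 6 genes had a listed cytosine. The libraries were RNA bisulfite sequencing (RNA BS-seq) of poly(A) RNA, selected in 2 rounds, from primary cortical neurons of wild-type C57BL/6 mouse embryos (E16.5, male and female cortices pooled). All cultures were grown for 7 days and silenced overnight from day 6 with 1 µM TTX, a blocker of voltage-gated sodium channels, and 100 µM DL-AP5, a blocker of NMDA receptors, and this also holds for the 0 h group. The groups were 0 h, 2 h, and 6 h of depolarization with 55 mM KCl, with 2 biological replicates each. Since the libraries come from whole cultures, fewer cells of a type and less RNA per cell cannot be told apart.

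In RNA BS-seq, an unmethylated cytosine is converted and read as T, while a methylated cytosine is still read as C, so the methylation level is the share of C among the C and T reads at a position. Malat1 and Neat1 are abundant nuclear RNAs that neighbour each other in the genome, and Neat1 is the scaffold of paraspeckles. Meg3 and Rian are expressed from the maternal copy of the imprinted Dlk1-Dio3 domain, and Rian hosts many C/D-box small nucleolar RNAs. Miat is a nuclear RNA studied for its part in splicing, and Snhg11 is a small nucleolar RNA host gene of neurons. In m5C biology, NSUN2 is the enzyme mainly tied to cytosines followed by G-rich sequence, and NSUN6 to the motif CTCCA.

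The 6 libraries listed between 1564646 and 2380612 positions, and the lowest listed coverage was 10 reads with at least 1 unconverted read. A cytosine with no unconverted read is therefore absent from the lists. All 7 neuron markers (Tubb3, Map2, Rbfox3, Syt1, Snap25, Slc17a7, and Gad1) had listed cytosines in every library. So did 4 of 4 astrocyte markers and 5 of 5 markers of the oligodendrocyte lineage, but only 1 of 3 microglia markers (Cx3cr1, with Csf1r and C1qa not listed) and 0 of 2 endothelial markers. Of 6 genes listed as a check of depolarization (Fos, Npas4, Arc, Nr4a1, Egr1, and Bdnf), 2 could be tested. These were Fos and Nr4a1, immediate early genes that neurons induce on depolarization. Their mean coverage was higher at 2 h than at 0 h by 7.20 and 6.06 on the log2 scale (limma, adjusted p = 6.78e-06 and 6.34e-07).

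The number of listed cytosines differed widely between the RNAs, whose coordinates are those of GRCm38. Meg3 (chr12:109541001-109571726, plus strand, 11 annotated transcripts) had 3157 listed cytosines, of which 88 were listed in all 6 libraries. Rian (chr12:109603940-109661716, plus strand) had 848, of which 303 were listed in all 6 libraries. Malat1 (chr19:5795690-5802672, minus strand) had 911, with 100 in all 6 libraries. Miat (chr5:112213228-112229395, minus strand) had 1336, with 5 in all 6 libraries, and Snhg11 (chr2:158375638-158386145, plus strand), which the annotation types as protein coding, had 675, with 2 in all 6 libraries. Neat1 (chr19:5824708-5845478, minus strand) holds 4607 exonic cytosines in the genome, and 0 of them were listed in any library under any gene label. No level or coverage can be given for Neat1. Within the coordinates of the other 5 genes, every listed cytosine lay on the strand of the gene. Listed cytosines were mainly exonic. In Meg3, 214 of the 3157 lay in introns of all transcripts, and their median coverage was 29.5 to 203 reads per library against 165.5 to 1626 reads for exonic ones.

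A position was said to pass with 20 or more reads, 6 or more of them methylated, and a level of 10% or higher. In Meg3 3 positions and in Miat 1 passed in both replicates of at least 1 time point, and a further position of Meg3 passed in 1 replicate only at each time point. They are shown because no other position of the members passed in any library. The 21 nt centred on each position read as follows in the RNA strand, 5′ to 3′, with the cytosine itself in capitals, and they equal the GRCm38 genome.
Meg3 chr12:109566715 (passes in both replicates): ccaccatccgCggagctgcct
Meg3 chr12:109566729 (passes in both replicates): gctgcctcccCaggcttcaca
Meg3 chr12:109567495 (passes in both replicates): ggaagagacgCagggctcttc
Miat chr5:112217279 (passes in both replicates): gggacgcggaCaaggctcagg
Meg3 chr12:109566728 (passes in 1 replicate only): agctgcctccCcaggcttcac

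The Meg3 positions all lay in the same exon, the 5th and last of transcript Meg3-209 (chr12:109558640-109571726). Of the 11 Meg3 transcripts, 1 has these positions in an exon, 3 have them in an intron, and 7 do not reach them. The Miat position lay in the 7th and last exon of Miat-201 and Miat-205, and the other 4 Miat transcripts do not reach it. The first Meg3 positions are close together, with 109566715 lying 25714 nt and 109566729 lying 25728 nt from the gene start, while 109567495 lies 26494 nt from it. Malat1, Rian, and Snhg11 had 0 positions passing in any library. Before KCl, 4 member positions passed in both replicates, whereas 2 did so after 2 h and 4 after 6 h. After 2 h, the coverage of the Miat position (16 and 18 reads) and of Meg3 109566715 in replicate 2 (19 reads) was under the minimum. Among cytosines covered by at least 20 reads, 0.0855% to 0.217% of the members' and 0.174% to 0.253% of the whole list's passed per library.

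Meg3 109567495 had the highest level of all members. Its level was 69.2% of 312 reads and 61.5% of 169 reads in the 0 h cultures, 70.4% of 297 and 80.0% of 160 after 2 h, and 76.4% of 471 and 70.7% of 532 after 6 h. The 4 libraries of 2 h and 6 h all lay above the 2 libraries of 0 h. Over all 6 libraries the level was 71.8% (95% Wilson interval 69.7 to 73.7, 1941 reads). Since copies made by PCR are not separated from independent molecules, this and the other intervals cover counting error only.

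Meg3 109566729 had an intermediate level. It was 36.1% of 97 reads and 30.8% of 78 in the 0 h cultures, 42.1% of 95 and 70.0% of 30 after 2 h, and 43.5% of 170 and 49.3% of 217 after 6 h. Again the 2 h and 6 h libraries all lay above the 0 h libraries, and the highest value rested on 30 reads. Its neighbour 1 nt upstream, 109566728, lay between 3.13% and 16.7% in the 6 libraries. Its 2 h libraries (13.5% and 16.7%) lay just above those of 0 h (3.13% and 13.3%) and of 6 h, and the 0 h and 6 h libraries overlapped. Meg3 109566715 stayed low, with 11.3% and 13.8% in the 0 h cultures, 15.3% and 21.1% after 2 h, and 16.4% and 14.9% after 6 h. The Miat position had 45.5% and 35.3% in the 0 h cultures, 56.3% and 22.2% after 2 h, and 32.1% and 43.2% after 6 h. Its 2 h replicates differed most, with 9 methylated of 16 reads and 4 of 18, and the 3 time points overlapped.

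**Figure D1:**
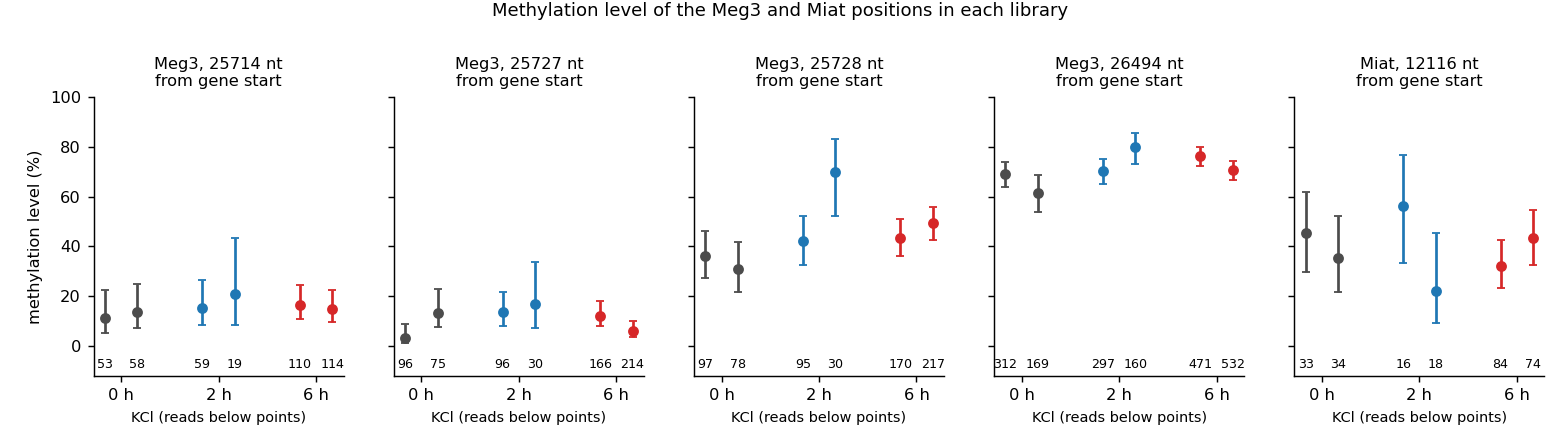
Methylation level (%) of the 4 Meg3 positions and the Miat position in each of the 6 libraries, by hours of KCl. Points are libraries, bars are 95% Wilson intervals, and the numbers under the points are reads; Meg3 at 26494 nt lies between 61.5% and 80.0% in every library, and the Miat intervals of all time points overlap.

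Whether the level of these positions differed between time points was tested by two-sided Fisher's exact test on the reads summed over replicates, with Benjamini-Hochberg adjustment over all positions of the whole list that were tested. Between 0 h and 2 h, 0 of the 4 member positions were called, against 9.45% of the 2825 positions tested, with 7.72% called higher at 2 h. For 0 h vs. 6 h, 0 of 4 were called, against 7.22% of 2838, with 5.32% called higher at 6 h. In 2 h vs. 6 h, 0 of 4 were called, against 11.7% of 2928. At an unadjusted p under 0.05, Fisher's exact test separated 2 of the 4, both in Meg3, in 0 h vs. 2 h and in 0 h vs. 6 h, and 0 in 2 h vs. 6 h, against 16.6%, 15.9%, and 21.6% of all positions tested. limma and a quasi-binomial model, which use the spread between replicates, called 0 of the 4 in all 3 comparisons and also 0 of all positions tested. At an unadjusted p under 0.05, limma separated 211, 88, and 155 of all positions and the quasi-binomial model 163, 92, and 109.

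Among the 4, the largest difference in 0 h vs. 2 h was at Meg3 109566729, the only one of them that is not among the study's high-confidence positions. Its mean level was 33.4% ± 3.76 (SD, n = 2) in the 0 h cultures, 56.1% ± 19.7 after 2 h, and 46.4% ± 4.09 after 6 h, and Fisher's exact test gave an adjusted p of 0.105 between 0 h and 2 h and 0.0572 between 0 h and 6 h. When a replicate was left out, the difference ranged from 8.68 to 36.6 percentage points between 0 h and 2 h (exact test, adjusted p = 0.637 without KCl 2 h replicate 2 and 0.00821 without KCl 2 h replicate 1, where 30 reads remain). Between 0 h and 6 h it ranged from 10.1 to 15.9 percentage points, with adjusted p-values of 0.0361 (without KCl 6 h replicate 1) to 0.487 (without KCl 0 h replicate 2) by the exact test. With a coverage of at least 50 in all 4 libraries compared, this position (exact test, adjusted p = 0.0328) and 109567495 (0.0461) were called in 0 h vs. 6 h, 2 of the 3 members tested against 16% of 1435 positions. Meg3 109567495 had a mean of 65.4% ± 5.44 in the 0 h cultures, 75.2% ± 6.81 after 2 h, and 73.6% ± 4.07 after 6 h, with an adjusted p of 0.145 and 0.0793 by the same exact test. The call at 109567495 depended on the alternative. It was called when the test was stratified by replicate number (Cochran-Mantel-Haenszel test, adjusted p = 0.0313 for 0 h vs. 6 h), which called 7.58% of all positions. It was also called by the exact test among the study's high-confidence positions (adjusted p = 0.0320 between 0 h and 2 h and 0.0204 between 0 h and 6 h), a list that was chosen on these samples. That is 1 of the 3 members on the list in each comparison, against 60.6% of its 406 positions and 41.4% of its 399 positions tested. With 3 members the shares cannot be compared. In 0 h vs. 6 h its adjusted p by the exact test was 0.00570 without KCl 6 h replicate 2, 0.0474 without KCl 0 h replicate 1, 0.556 without KCl 6 h replicate 1, and 0.831 without KCl 0 h replicate 2. In 0 h vs. 2 h it was 0.0242 without KCl 2 h replicate 1 and 0.0628 to 0.771 without any other replicate. At Meg3 109566715 and at the Miat position the adjusted p was 1 in each comparison by Fisher's exact test, with mean levels of 12.6% to 18.2% and of 37.7% to 40.4%.

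Cytosines near these positions with at least 100 reads over the 6 libraries had low levels. Within 50 nt of Meg3 109567495, 25 other cytosines had at least 100 reads over the 6 libraries, and their highest level was 0.861% (median 0.405%). Around Meg3 109566729, 9 such cytosines, apart from the positions printed above, had a median of 1.03% and a highest level of 2.76%. Around the Miat position there were 3, with a highest level of 4.07%. With no minimum of reads, 20 cytosines were listed around the Miat position, with a median of 2.65% and a highest level of 17.9%. Around Meg3 109566729, 35 were then listed, the printed positions among them, with a median of 3.45%. Of the 5 printed sequences, only Meg3 109567495 had G at each of positions 2 to 4 after the cytosine (GGG), a feature of 1.90% of the whole list, 2.35% of the members' cytosines, and 4.85% of the 3090 positions of the whole list that met the filter in both libraries of a group. None of the 5 held CTCCA around the site (with the site as either of its C bases after the T), which 1.43% of the whole list and 1.56% of the members did. Motifs were searched on the RNA strand only, and a match is a description of the letters and not of an enzyme's site.

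Apart from these positions, the long noncoding RNAs were close to fully converted. Of the cytosines with at least 1000 reads over the 6 libraries, a level of 1% or more was seen at 0 of 465 in Malat1, 5 of 1298 in Meg3, 1 of 250 in Miat, 4 of 487 in Rian, and 0 of 97 in Snhg11. The median level was 0.113% in Malat1, 0.137% in Meg3, 0.203% in Snhg11, 0.229% in Rian, and 0.261% in Miat. The lists hold only cytosines with an unconverted read, so these medians leave out the fully converted ones. For the same reason, a library without an unconverted read at a cytosine adds no reads to its level. Levels of cytosines not listed in all 6 libraries can therefore be too high.

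**Figure D2:**
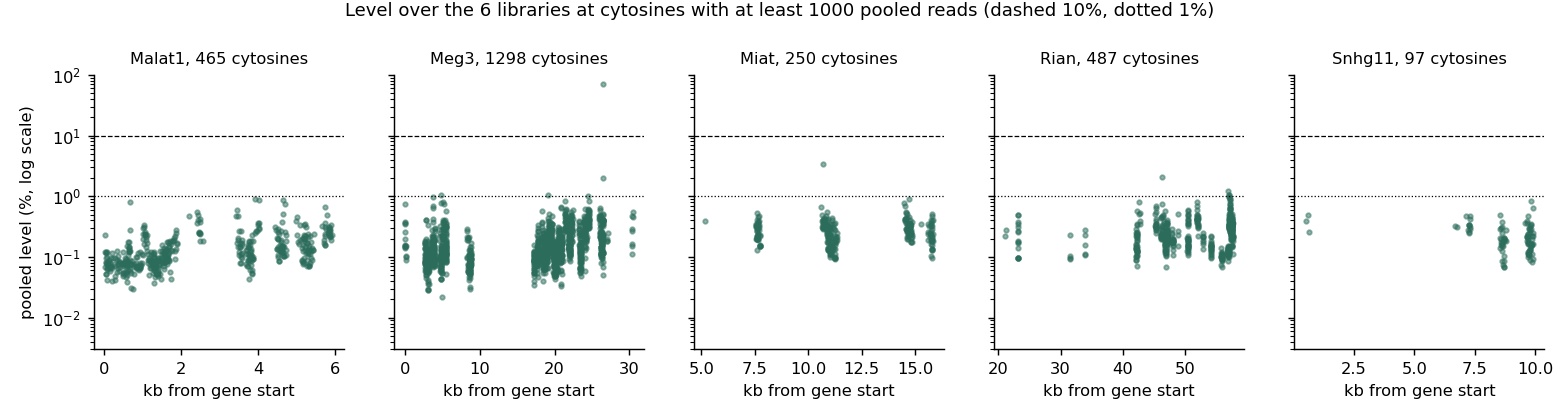
Level (%, log scale) over the 6 libraries at each listed cytosine with at least 1000 pooled reads, by distance (kb) from the start of each gene; dashed and dotted lines mark 10% and 1%. A single Meg3 cytosine at 71.8% stands above 10%, and Malat1 and Snhg11 have none at or above 1%.

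Some positions with low levels were listed in all 6 libraries with a level above that of their neighbours. The 8 shown were chosen after their values were seen, from the 14 with the highest levels over all libraries in their gene after the ones above, and give the highest of each of these RNAs and 1 more for Meg3, Miat, and Rian. They include all 5 of the 14 with AGG after the cytosine, a feature of 2.93% of the whole list, and nothing is drawn from this. Not shown are Malat1 5801628 and 5802008, Meg3 109558990, Miat 112214691, Rian 109661012, and Snhg11 158382941.
Malat1 chr19:5802007: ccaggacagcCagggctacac
Rian chr12:109650225: gaaaatatttCtggggctggt
Rian chr12:109660857: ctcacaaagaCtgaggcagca
Snhg11 chr2:158384550: gtgtacactgCaggcatgtat
Miat chr5:112221608: ttcctccactCaggatcctcc
Miat chr5:112218685: gtgcctgactCagtgctgggc
Meg3 chr12:109570831: gcttggtatgCaggtgctcat
Meg3 chr12:109567434: ctgtgtgtttCaggaggaccc

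Malat1 5802007, in a stretch that the genome marks as repeat, had 217 unconverted of 27430 reads, a level of 0.791% (95% Wilson interval 0.693 to 0.903). The median over its 21 neighbours was 0.0877%, and its level was between 0.474% and 1.03% in every library. Rian 109660857, also in a marked repeat, had 666 of 53936 reads, a level of 1.23% (interval 1.15 to 1.33), against a median of 0.127% over 25 neighbours. Rian 109650225, in a marked repeat as well, had 34 of 1661 reads (2.05%, interval 1.47 to 2.85). Snhg11 158384550 had 25 of 647 reads (3.86%, interval 2.63 to 5.64). In Miat, 112221608 had 36 of 596 reads (6.04%, interval 4.39 to 8.25) and 112218685 had 60 of 1771 reads (3.39%, interval 2.64 to 4.34). In Meg3, 109570831 had 35 of 732 reads (4.78%, interval 3.46 to 6.58) and 109567434, which lies 61 nt upstream of 109567495, had 106 of 5205 reads (2.04%, interval 1.69 to 2.46). All of these intervals end below the 10% that a passing position needs.

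One library stood apart in Rian. At coverage of at least 1000, the 6 h replicate 1 library had 31 of 352 Rian cytosines at a level of 1% or more, computed from the reads, whereas the other 5 libraries had 1 or 2 each, and 6 h replicate 2 had 1 of 373. Most of the 31 lay in runs, with at most 30 nt between neighbours. The longest run, chr12:109660930-109661002, held 9 cytosines over 73 nt with 19 to 23 unconverted reads each, and its median level was 1.12% in 6 h replicate 1 and 0.0476% to 0.273% in the other libraries. Other runs lay at chr12:109650944-109650969 (4 cytosines), chr12:109654403-109654421 (6), chr12:109655873-109655912 (6), and chr12:109661078-109661104 (4). No other member and no other library had a run of 3 or more such cytosines. Among deeply covered Rian cytosines (5000 reads or more, rounded deposited level under 1%), the unconverted share was 0.107% and 0.0942% in the 0 h cultures, 0.107% and 0.0974% after 2 h, and 0.188% and 0.104% after 6 h. The share of the whole list was 0.115% in 6 h replicate 1 and 0.0837% to 0.0869% in the other libraries.

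**Figure D3:**
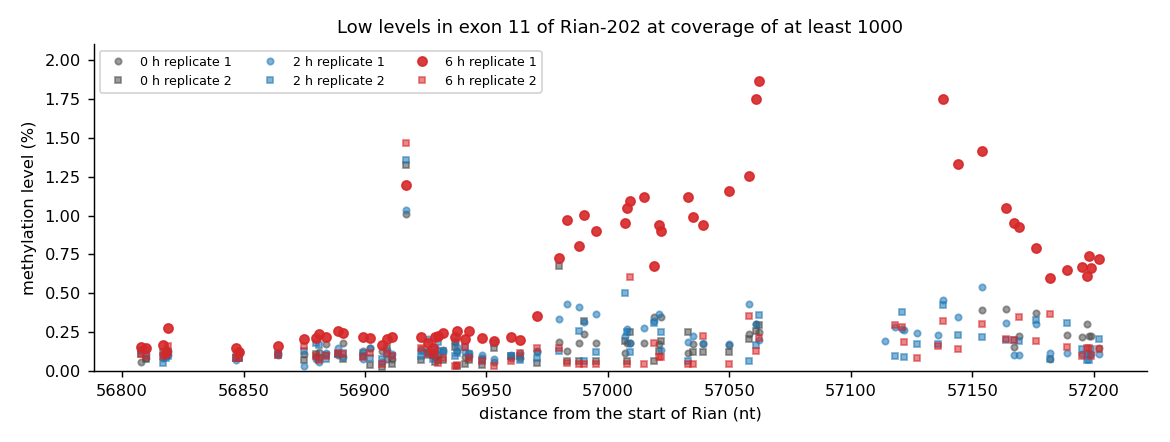
Level (%) of Rian cytosines with coverage of at least 1000 near the start of exon 11 of transcript Rian-202, by distance (nt) from the gene start, with a point for each library. Many 6 h replicate 1 points lie near 1% between 56990 and 57164 nt, where the other libraries lie lower, whereas the cytosine at 56917 nt lies at 1% or more in all 6 libraries.

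When the level minimum was dropped, and positions with 6 methylated reads in both replicates of a time point were tested, an alternative added after the data were seen, more of the members' cytosines could be compared. For 0 h vs. 2 h, 0 of 146 were called by Fisher's exact test with adjustment over the whole list, against 2.18% of 70021. Between 0 h and 6 h, 8 of 155 were called (5 in Rian, 2 in Meg3, and 1 in Malat1), against 6.1% of 71196. In 2 h vs. 6 h, 14 of 152 were called (13 in Rian and 1 in Malat1), against 7.91% of 72681. Without KCl 6 h replicate 1 the members' counts were 0 in 0 h vs. 6 h and 0 in 2 h vs. 6 h, against 1.42% of 71630 and 1.15% of 73154. The Meg3 positions called in 0 h vs. 6 h were the low-level ones printed above. Both had 6 methylated reads in both replicates only at later time points, so they entered the test through a group where they were high, and their values are given as a description. Position 109567434 had 0.959% and 0.248% in the 0 h cultures, 2.12% and 2.14% after 2 h, and 2.96% and 2.12% after 6 h. Position 109570831 had 1.41% and 1.35% in the 0 h cultures, 4.52% and 6.85% after 2 h, and 8.72% and 5.04% after 6 h.

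The coverage of the RNAs was compared between time points as the mean number of reads over the cytosines listed in all 6 libraries, scaled by the median ratio over genes. It is a measure of how much of an RNA was sequenced, at the cytosines that could be followed. In 0 h vs. 2 h, 1 of the 4 members tested changed, being lower at 2 h (limma, adjusted p of at most 0.05), against 28.7% of the 2600 genes tested in either direction and 14.9% called lower. Between 0 h and 6 h, 3 of 4 changed, all higher at 6 h, against 62.1% of genes called in either direction and 30.8% called higher. In 2 h vs. 6 h, 2 of 4 changed, both higher at 6 h, against 51.8% called in either direction and 26% called higher. The comparisons with 0 h share its 2 libraries. Snhg11, with 2 such cytosines, could not be tested this way.

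Meg3 rose at 6 h. Its scaled mean coverage over 88 cytosines was 1613 and 1345 reads in the 0 h cultures, 1371 and 921 after 2 h, and 3759 and 3541 after 6 h. The 6 h libraries were the highest and did not overlap with the others, while the 0 h and 2 h libraries overlapped. The change was 1.31 ± 0.19 on the log2 scale in 0 h vs. 6 h (SE, 2.48-fold, limma adjusted p = 0.00219) and 1.70 ± 0.19 in 2 h vs. 6 h (adjusted p = 0.00137). For 0 h vs. 2 h it was −0.39 ± 0.19 (adjusted p = 0.188), and −0.68 (adjusted p = 0.00578) without KCl 2 h replicate 1 and −0.10 (adjusted p = 0.513) without KCl 2 h replicate 2. With a replicate left out, a time point is 1 library, which is assumed to vary like the other groups, here and for the RNAs below. Both 6 h libraries lay above both 0 h libraries at 87 of the 88 cytosines. The exon that holds the methylated positions had a ratio of 2.21 between the 6 h and 0 h means over 47 cytosines, and the other exons had 2.65 over 41 cytosines. Over all listed cytosines, the median coverage per library was 98 to 1223 reads in that exon and 423 to 2372 reads in the rest of the gene, as the plot of coverage along Meg3 also shows.

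**Figure D4:**
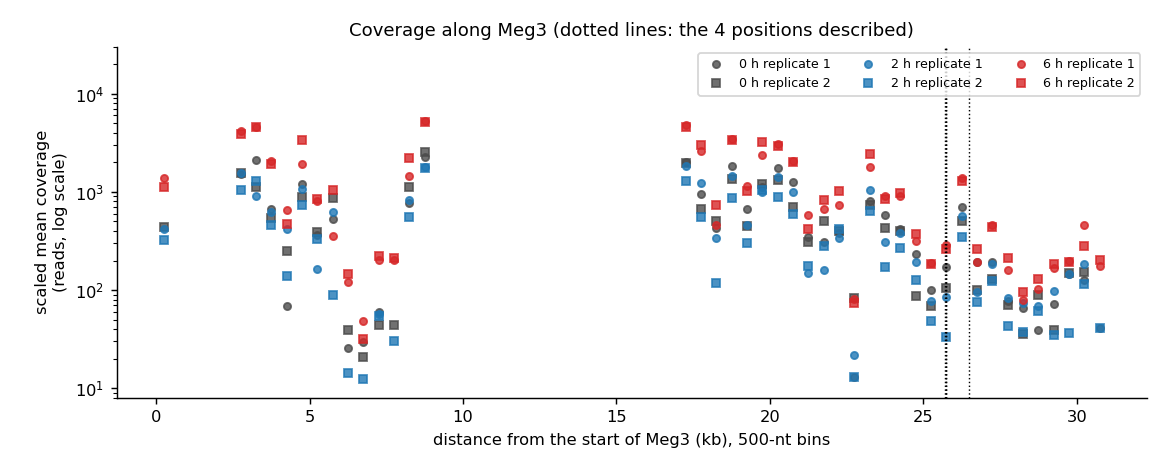
Scaled mean coverage (reads, log scale) of the listed cytosines of Meg3 in 500-nt bins, by distance (kb) from the gene start, with a point for each library and dotted lines at the 4 printed passing or nearly passing positions. The 6 h libraries lie above the 0 h libraries in most bins, and all 4 positions lie beyond 25 kb.

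Miat fell at 2 h and rose at 6 h. Its scaled mean coverage over 5 cytosines was 213 and 206 reads in the 0 h cultures, 125 and 103 after 2 h, and 433 and 394 after 6 h, and the 3 time points did not overlap. The change was −0.89 ± 0.10 in 0 h vs. 2 h (limma, adjusted p = 0.00349), 0.98 ± 0.10 in 0 h vs. 6 h (1.97-fold, adjusted p = 0.000658), and 1.87 ± 0.10 in 2 h vs. 6 h (3.65-fold, adjusted p = 0.000324). All 5 cytosines were lower in both 2 h libraries and higher in both 6 h libraries than in both 0 h libraries. Since 5 cytosines are few, coverage was also averaged over 100-nt windows that hold a listed cytosine in all 6 libraries, an alternative added after the data were seen. Over 22 windows, Miat changed by −0.70, 1.07, and 1.76 in the same order of comparisons.

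These windows also allowed Snhg11 to be followed. Over 16 windows its scaled mean coverage was 349 and 360 reads in the 0 h cultures, 248 and 188 after 2 h, and 662 and 607 after 6 h. It changed by −0.71 ± 0.13 at 2 h (limma, adjusted p = 0.00647) and by 0.84 ± 0.13 at 6 h (1.79-fold, adjusted p = 0.00150), and 2 h vs. 6 h gave 1.55 ± 0.13 (2.94-fold, adjusted p = 0.000144). Of the 6853 genes tested in windows, 40.9% were called in 0 h vs. 2 h, with 22.9% lower at 2 h. In the comparison of 0 h with 6 h, 68.5% were called, with 34.1% higher at 6 h, and between 2 h and 6 h, 65.5% were called, with 33.3% higher and 32.2% lower.

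The replicates of Malat1 lay far apart at 2 h. It had 3749 and 3777 reads in the 0 h cultures, 5226 and 3018 after 2 h, and 6457 and 5775 after 6 h over 100 cytosines. The 2 h libraries lay on opposite sides of the 0 h libraries, and the 6 h libraries lay above all others. The change was 0.70 ± 0.24 in 0 h vs. 6 h (1.62-fold, limma adjusted p = 0.0488) and 0.08 ± 0.24 in 0 h vs. 2 h (adjusted p = 0.836). The adjusted p at 6 h was just under the threshold. With the median in place of the mean the change was 0.65 (adjusted p = 0.0661), and with scaling by summed coverage 0.65 (adjusted p = 0.0614), and leaving out a 0 h or a 6 h replicate gave adjusted p-values of 0.123 to 0.193. It was called with a replicate block (adjusted p = 0.0324) and in 100-nt windows (0.86, adjusted p = 0.0200), where leaving out any 0 h or 6 h replicate also ended the call (0.78 to 0.94, adjusted p = 0.0634 to 0.102). Leaving out a 2 h replicate left the change at 0.70 and only took the spread at 2 h out of the error. In 0 h vs. 2 h the change was −0.32 without KCl 2 h replicate 1 and 0.47 without KCl 2 h replicate 2, where a single 2 h library is set against the spread of the 0 h and 6 h libraries. In 2 h vs. 6 h it was 0.62 ± 0.24 (adjusted p = 0.0790), and 1.02 (adjusted p = 0.000203) without KCl 2 h replicate 1 and 0.22 (adjusted p = 0.0635) without KCl 2 h replicate 2.

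Rian, from the same imprinted domain as Meg3, was not called by the mean over its cytosines in any comparison. It had 3664 and 4091 reads in the 0 h cultures, 3638 and 3891 after 2 h, and 4436 and 4207 after 6 h over 303 cytosines, so that 0 h and 2 h overlapped and the 6 h libraries lay just above. The change was 0.16 ± 0.08 in 0 h vs. 6 h (1.12-fold, limma adjusted p = 0.117), 0.20 ± 0.08 in 2 h vs. 6 h (adjusted p = 0.0716), and −0.04 ± 0.08 in 0 h vs. 2 h (adjusted p = 0.715). With the median over cytosines the 0 h vs. 6 h change was 0.31 (adjusted p = 0.0203), and in 100-nt windows 0.32 (adjusted p = 0.00307). The 2 h vs. 6 h change was 0.27 (adjusted p = 0.0427) with the median and 0.22 (adjusted p = 0.0176) in windows. The window value lost its call without KCl 2 h replicate 1 (0.19, adjusted p = 0.0552), KCl 6 h replicate 1 (0.20, adjusted p = 0.0932), or KCl 6 h replicate 2 (0.24, adjusted p = 0.0592). The 0 h vs. 2 h change was above 0 with the median, with no minimum, in windows, and without KCl 0 h replicate 2 or KCl 2 h replicate 1.

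**Figure D5:**
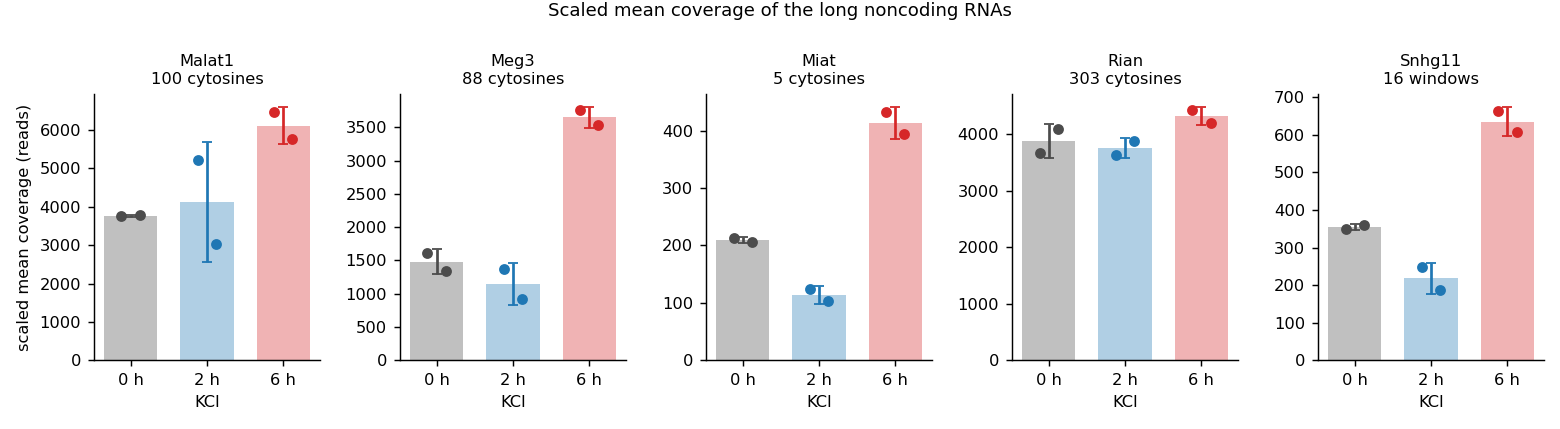
Scaled mean coverage (reads) of 5 long noncoding RNAs by hours of KCl, over cytosines listed in all 6 libraries or, for Snhg11, over 100-nt windows. Points are libraries, bars are means and lines are SD (n = 2); Meg3, Miat, and Snhg11 are highest in the 6 h libraries, the 2 h libraries of Malat1 lie at 5226 and 3018 reads, and Rian lies between 3638 and 4436.

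Markers of other cell types moved with the time points as well, and their part in these results was not tested. The unscaled mean coverage of each marker over its cytosines listed in a library was summed over the markers of a list. The listed cytosines differ between libraries (126 to 330 for Rbfox3), so this sum mixes listing with coverage. For neurons it was 21336 to 26663 in the 0 h cultures, 16022 to 20585 after 2 h, and 16938 to 19071 after 6 h. For astrocytes it was 4111 to 4779, 3853 to 4794, and 3213 to 3665. It was 3215 to 3531, 2150 to 2575, and 3184 to 3637 for the oligodendrocyte lineage. For 0 h vs. 6 h, 2 of the 5 neuron markers tested rose, 1 fell, and 2 were not called, and 2 of 2 astrocyte markers fell. Tubb3, a neuronal tubulin, fell by 1.23 and Gad1, the GABA-synthesizing enzyme of inhibitory neurons, rose by 1.22 on the log2 scale (limma, adjusted p = 6.02e-05 and 8.16e-05). Aldh1l1, a folate enzyme of astrocytes, fell by 0.64 (limma, adjusted p = 0.000266). Olig1, a transcription factor of the oligodendrocyte lineage and the 1 marker of its list tested over single cytosines, was −0.63 at 2 h and 0.20 at 6 h against 0 h (limma, adjusted p = 0.00193 and 0.0319). In 100-nt windows, on which the Snhg11 values rest, 4 markers of the oligodendrocyte lineage were tested, with 3 lower and 0 higher at 2 h and 3 higher and 1 lower at 6 h. Of 4 astrocyte markers in windows, 0 were called at 2 h and 3 were lower at 6 h, and of 7 neuron markers 3 were higher and 1 lower at 2 h and 2 higher and 2 lower at 6 h. The microglia marker Cx3cr1, a chemokine receptor, was lower in windows at 2 h (−0.44, limma adjusted p = 0.00288) and at 6 h (−0.77, adjusted p = 0.000114).

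Of 29 other noncoding RNAs, 5 could be tested. Between 0 h and 2 h 1 was called higher and 1 lower, in 0 h vs. 6 h 1 higher and 1 lower, and in 2 h vs. 6 h 1 higher and 0 lower, and their median change was −0.44, 0.15, and −0.06. The median over the 2600 genes was −0.027, 0.007, and 0.003 in these comparisons. Peg13, an imprinted noncoding RNA of brain, was lower at 2 h (−0.64 ± 0.06, limma adjusted p = 0.00193) and higher at 6 h (0.32 ± 0.06, adjusted p = 0.00589). Pantr1, which neighbours Pou3f3, was higher at 2 h (0.31 ± 0.06, adjusted p = 0.0171). Gas5, a growth-arrest RNA that hosts small nucleolar RNAs, was lower at 6 h (−0.28 ± 0.09, adjusted p = 0.0388) but was not called in 100-nt windows (−0.20, adjusted p = 0.122). Tug1 and 1700020I14Rik were not called in any of the 3 comparisons.

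The genes whose scaled coverage ran most like a member over the 6 libraries were found among 2580 others with a mean coverage of at least 100 by Pearson's r, given as a description, since the 6 points share their libraries and time points. For Meg3 they were Robo2, a receptor for Slit axon guidance cues (r = 0.998), Pfkp, a phosphofructokinase (0.997), and Rnf20, a histone H2B ubiquitin ligase (0.997). For Miat they were Eef1d, a translation elongation factor (0.999), Aars, the alanyl-tRNA synthetase (0.997), and Lsm1, a subunit of an mRNA decay complex (0.997). For Malat1 they were Klhl7 (0.987), Gpbp1 (0.983), and Gm49496 (0.980), and those for Rian included Tdg, a DNA glycosylase (0.982), and Cep19 (0.969). A value of at least 0.95 was reached by 132 genes for Meg3, 93 for Miat, 31 for Malat1, and 5 for Rian. Pearson's r does not compare sizes. Robo2 changed by 0.53 and Meg3 by 1.31 on the log2 scale in 0 h vs. 6 h, while Gpbp1 changed by 0.67 and Malat1 by 0.70.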

How the data were processed

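RNA BS-seq was measured in 6 libraries, 2 at each of 3 time points. Reads were trimmed by the authors and mapped to GRCm38 (mm10 in the submitters' processing notes, which also name R 4.1.1) with meRanTK, and called positions with meRanCall. They deposited, for each library, read counts per position without normalization (coverage and unconverted reads) and the methylation level as a fraction. The caller's p-values, as deposited, were 0 wherever given and were not used. Of the study's filters, that on coverage, level, and methylated reads was applied here, and those on unconverted reads, signal/noise, false discovery rate, and RNA structure were not. The members and lists were chosen with earlier results of these data known.

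Here the counts were used as deposited. Positions were tested when they passed the filter in both replicates of at least 1 time point and had coverage of at least 10 in the 4 libraries compared, by Fisher's exact test (two-sided, reads of both replicates summed). P-values were adjusted over all positions by the Benjamini-Hochberg method, with a threshold of 0.05. Gene coverage is the mean over a gene's cytosines listed in all 6 libraries (at least 5 cytosines, mean coverage of at least 20), scaled by the median over genes of the ratio to the geometric mean library, and was tested on the log2 scale with limma, all 6 libraries in 1 fit with 3 residual degrees of freedom. One read counts at each of its cytosines, so coverage is no read count and no count model was used. Library sums of coverage ranged from 1637706778 to 2352246636. Named were all member positions that passed, those that passed in 1 replicate only, and for each member the 3 genes with the highest Pearson's r, of which 1 is not reported here. Exons and transcripts came from GENCODE M21, and sequences of 21 nt from the deposited lists.

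On simulated data, Fisher's exact test recovered 40 of 200 positions changed by 10 percentage points among 2825 (0 h vs. 2 h) and called 0 unchanged ones. Both simulated replicates of a group were drawn at the same level. That simulation therefore cannot show false calls of the exact test that come from spread between replicates. limma recovered 189 of 200 genes changed by 1 on the log2 scale among 2600 (0 h vs. 6 h) and called 15 unchanged ones. Alternatives were other minimums of coverage, level, and reads, other position sets, a Cochran-Mantel-Haenszel test, limma and a quasi-binomial model for sites, other summaries and scalings of coverage, a replicate block, and leaving out each replicate. RNA-seq counts and the spike-in were not analysed here. Tests ran in R 4.3.3 with limma 3.58.1 and in Python 3.11.15 with scipy 1.17.1, tables in pandas 2.3.3 and numpy 2.4.6, and plots in matplotlib 3.10.9.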

Additional observations from a re-analysis of the deposited data

How the results depend on the processing

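The member counts called between time points were small and moved with the setting. Fisher's exact test called 1 position in 0 h vs. 2 h and 1 in 0 h vs. 6 h among the high-confidence positions (60.6% and 41.4% of all those), 2 in 0 h vs. 6 h at a coverage of at least 50 (16% of all), and 8 (0 h vs. 6 h) and 14 (2 h vs. 6 h) with no level minimum, an alternative added after the data were seen; leaving out a replicate gave 0 to 2 in 0 h vs. 2 h and 0 to 1 in 0 h vs. 6 h. Of all positions, 267, 205, and 343 were called in the 3 comparisons, limma and the quasi-binomial model called 0, leaving out a replicate gave 169 to 254, 147 to 509, and 224 to 590, and 2 h vs. 6 h gave 547 for positions passing in at least 1 library, 194 for the high-confidence positions, and 174 outside the mitochondrial chromosome. At 2 h, 1 member position passed at a coverage of at least 50 and 5 passed on summed reads, against 2. Leaving out a replicate turned the direction at Meg3 109566715 (−5.41 to 0.384 percentage points), 109566729 (−23.6 to 4.31), and 109567495 (−6.45 to 3.18) in 2 h vs. 6 h, and at the Miat position in all comparisons (−18.2 to 15.9, −8.23 to 2.87, and −18.6 to 15.5). The cause was not tested.

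The replicate numbers came from the labels, and same-numbered libraries did not deviate together in all pairs (correlations of 0.27, −0.04, and −0.04 over site levels and 0.45, −0.25, and −0.27 over gene coverage), so they share only a number. With the replicate block the Cochran-Mantel-Haenszel test called 1 member position in 0 h vs. 6 h and 0 in the other comparisons. limma with the block called 679, 1588, and 1307 genes, against 745, 1614, and 1346 without it, and the same number of members. In 100-nt windows the block added a call of Malat1 in 2 h vs. 6 h (0.63, limma adjusted p = 0.0313, against 0.0608 without it).

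For gene coverage, members called numbered 2 (0 h vs. 2 h), 5 (0 h vs. 6 h), and 4 (2 h vs. 6 h) of 5 in 100-nt windows, against 40.9%, 68.5%, and 65.5% of all genes tested. With at least 20 cytosines, where Miat was not tested, they numbered 0, 1, and 1 of 3, against 26.1%, 59.5%, and 46.5%. In 0 h vs. 2 h they numbered 2 of 5 with no minimum, against 25.8% of genes. Without positions at a level of 0.1, where Miat was not tested, they numbered 0 of 3 in 0 h vs. 2 h (29.5% of genes) and 1 of 3 in 2 h vs. 6 h (51.8%). Called genes were 2803, 4692, and 4491 in windows, 421, 958, and 748 with at least 20 cytosines, 1209, 2780, and 2491 with no minimum, and as few as 309, 1170, and 840 when a replicate was left out. Malat1 in 0 h vs. 6 h lost its call with the median (0.65), summed scaling (0.65), and at least 20 cytosines (0.67), and ranged from 0.62 to 0.78 when a replicate was left out; it ranged from −0.32 to 0.47 in 0 h vs. 2 h and from 0.22 to 1.02 in 2 h vs. 6 h. Meg3 in 0 h vs. 2 h ranged from −0.68 to −0.10. Rian in 0 h vs. 2 h turned to 0.045 with the median, 0.017 with no minimum, and 0.11 in windows, and ranged from −0.12 to 0.038 when a replicate was left out. Rian was called with the median (0.31 in 0 h vs. 6 h and 0.27 in 2 h vs. 6 h) and in windows (0.32 and 0.22). The calls of Meg3 at 6 h against either earlier time point held in every alternative run, and so did the calls of Miat in the alternatives that tested it. Coverage of 16 to 34 reads at the Miat position at 0 h and 2 h, and of 19 to 59 at Meg3 109566715, limits the level differences that could be called there.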

Other observations

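A tetramer recurred among the positions with the highest levels and was noticed only after their sequences were printed. The 19 positions of the members that passed or came next in level held CAGG, with the cytosine of the site first, at 7 (36.8%), namely Meg3 109566729, 109567495, 109567434, and 109570831, Miat 112221608, Malat1 5802007, and Snhg11 158384550. CAGG stood at 2.93% of the whole list, at 3.39% of the members' 6927 cytosines, at 5.42% of the 498 members' cytosines listed in all 6 libraries, and at 6.60% of the 2226 passing positions outside the mitochondrial chromosome. It was searched on the RNA strand only and overlaps with GGG at positions 2 to 4 where a further G follows, as at Meg3 109567495 and Malat1 5802007. The 19 positions were chosen by their levels and some lie near each other in Meg3, so these shares are a description.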
